A study of Mus musculus with 24 samples.

Results

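The genes described here are 34 genes of DNA replication, taken as a named set and looked up by gene name among the non-control probes of the array. All 34 were found, out of 46559 genes and unnamed probes measured. The levels come from 24 Agilent 1-colour microarrays of mouse RNA, in 6 groups of 4. The animals were male, of strain C57BL/6 and 10 weeks old. The groups labelled tumour-associated macrophages (TAM) are cells taken from tumours on a Percoll gradient and kept after 1 hour of adhesion, from naive mice (TAM naive) or from mice isolated 14 days after sepsis (TAM post-sepsis). The labels used here name neither the tumour line nor the sepsis model. Marrow progenitors of naive mice (M0 naive) and of mice 14 days after sepsis (M0 post-sepsis) were grown into macrophages for 7 days in medium with 20% supernatant of L929 fibroblasts, a source of the growth factor M-CSF, and 10% serum. Marrow cultures of naive mice given interferon-gamma at 50 ng/mL with lipopolysaccharide at 10 ng/mL at day 3 were called M1, and those given IL-10 at 20 ng/mL at day 3 were called M2. TAM naive replicate 2, which the submitters had excluded for low RNA amount and quality, was left out, so 23 arrays were used. On that array the mean level of the 34 genes was -0.03, and 24 of them were above background. Per the series' design text, the 4 samples of each group were picked as the best of a larger number from more than 1 experiment (for TAM by absorbance ratios), and which experiment each came from is not stated, so p-values measure the spread between chosen samples.

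Before a cell divides it copies its genome once. Licensing factors load the MCM helicase on origins in G1, cyclin E with its kinase and E2F factors start S phase, and polymerases then copy the DNA behind the helicase, held on it by the sliding clamp PCNA, which the clamp loader places. Nucleotide enzymes supply the precursors and chromatin assembly factors package the new DNA. Transcripts of most of these genes are abundant in dividing cells and scarce in resting ones. Macrophage progenitors divide under M-CSF, and interferon-gamma and lipopolysaccharide are known to stop that division.

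Many replication genes carry E2F sites close to their start. The promoter windows of RefSeq (GRCm38.p6), 250 bases before to 50 after a gene's start, were searched for TTTCCCGC, TTTGGCGC, TTTCGCGC, TTTGCCGC and TTTCGGGC on both strands. Of the 34 genes, 29 had a window, and 11 of these (37.9%) held at least 1 of the 5 motifs, against 822 of 27025 genes in the whole table (3.04%). In 7 of the 29 a motif lay before the start, against 2.52% of all genes. Start here means the start site that a window was built on, which need not be the outermost start of the gene. The stretches below show 5 of these 7 genes, those of helicase loading, the helicase and the primer-extending polymerase: Cdc6, which loads the helicase, the helicase subunits Mcm5, Mcm6 and Mcm7, and Pola1, the catalytic subunit of that polymerase. Motifs are in capitals, and each stretch reads 5′ to 3′ on the gene's strand.
Cdc6: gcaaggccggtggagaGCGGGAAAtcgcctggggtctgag
Mcm5: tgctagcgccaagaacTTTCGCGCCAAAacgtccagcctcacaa
Mcm6: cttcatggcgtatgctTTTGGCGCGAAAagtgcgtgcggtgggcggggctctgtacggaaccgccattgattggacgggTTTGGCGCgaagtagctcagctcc
Mcm7: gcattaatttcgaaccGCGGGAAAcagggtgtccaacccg
Pola1: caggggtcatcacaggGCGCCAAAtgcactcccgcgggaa

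The Cdc6 stretch lies at chr11:98907997-98908036 (plus strand), that of Mcm5 at chr8:75109340-75109383 (plus), that of Mcm6 at chr1:128359729-128359831 (minus), that of Mcm7 at chr5:138172025-138172064 (minus) and that of Pola1 at chrX:93632270-93632309 (minus). The Mcm5 stretch holds 2 motifs that overlap, TTTCGCGC and GCGCCAAA, and the Mcm6 stretch holds 3, of which TTTGGCGC and GCGCGAAA overlap. Rfc3 and Uhrf1 also held a motif before the start, and in Cdt1, Lig1, Mcm3 and Pold1 the motifs lay after the start. For Cdc6, Mcm7, Pola1 and Uhrf1 the annotated span of the gene begins further upstream, so their motifs lie within that span. The CCAAT box, searched as CCAAT and ATTGG, occurred in 16 of the 29 genes (55.2%) and in 41.1% of all genes. A match of letters is a description of the window and not evidence that a factor binds there.

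Levels are given as the log2 processed intensity of a probe minus the 75th percentile of that array, so that 0 is the level of a probe at the 75th percentile. Probes differ in brightness, so levels are compared between groups for 1 gene and not between genes. The 75th percentile of intensity ran from 236 to 694 over the 23 arrays, and 31 to 34 of the 34 genes were well above background on each of them. The mean level over the 34 genes was 3.07 ± 0.27 (SD, n = 4) in TAM post-sepsis, 2.41 ± 0.34 (n = 3) in TAM naive, 3.02 ± 0.28 (n = 4) in M0 post-sepsis, 1.59 ± 0.27 (n = 4) in M0 naive, 1.28 ± 0.11 (n = 4) in M2 and -0.04 ± 0.14 (n = 4) in M1. M1 had the lowest mean of the 6 groups for 26 of the 34 genes, and TAM post-sepsis the highest for 22. Among the 4 marrow groups, the means of 20 genes stood in the order M0 post-sepsis, M0 naive, M2, M1. The span from the lowest to the highest group mean was 7.53 on the log2 scale for the thymidine kinase Tk1, 6.69 for the reductase subunit Rrm2 and 0.85 for the histone message binder Slbp. The RNA is from whole cultures or isolates, in which fewer dividing cells and less RNA per cell cannot be told apart.

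**Figure D1:**
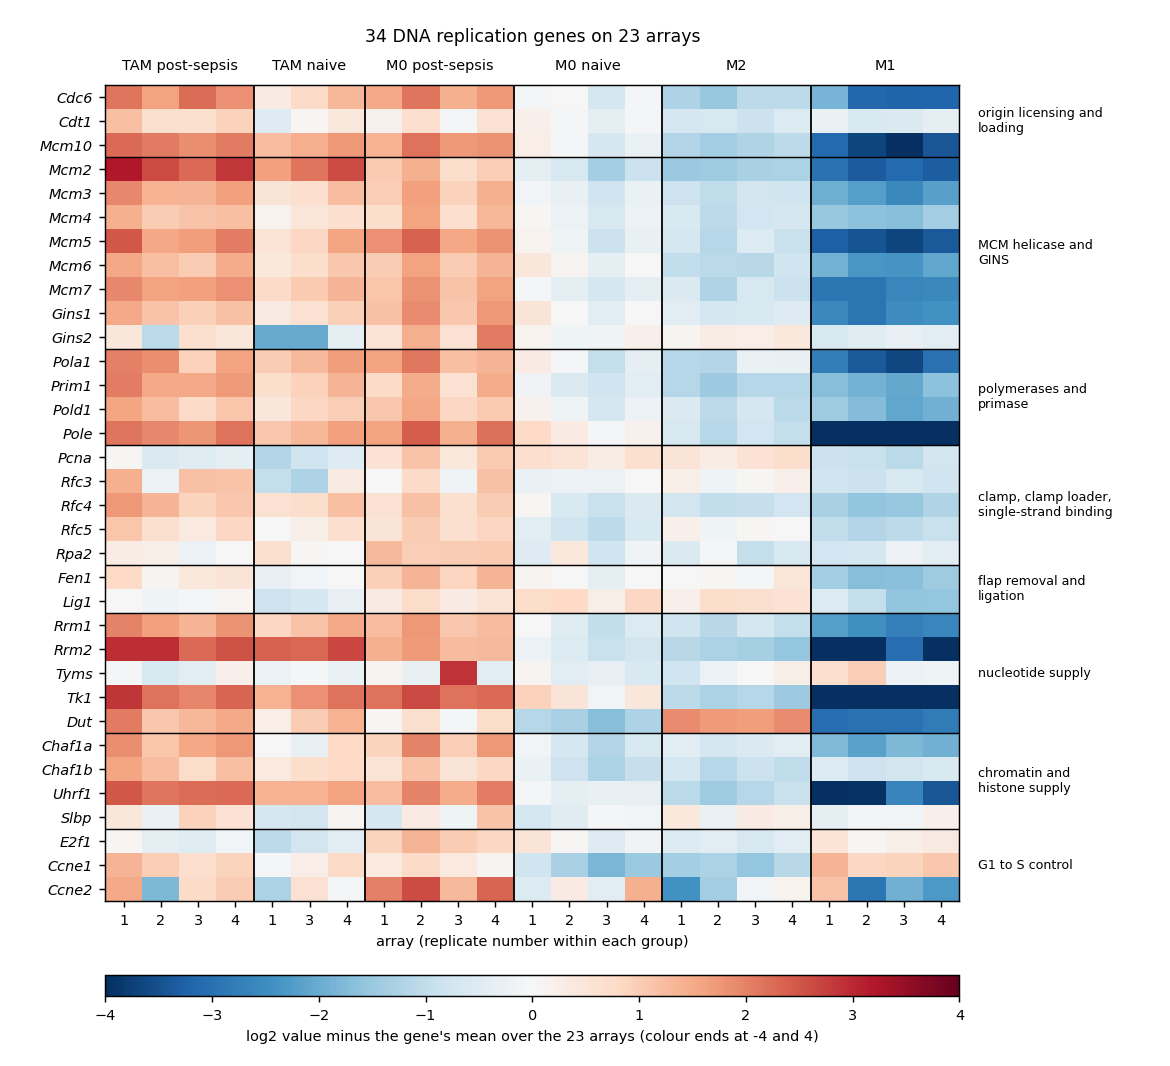
Levels of the 34 genes (rows, grouped by role) on the 23 arrays (columns, grouped by sample group), each as the log2 value minus that gene's mean over the arrays; colours end at -4 and 4. The M1 mean is the lowest of the 6 for 26 genes, while Dut is high in M2 and Ccne1 is high in M1.

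Marrow macrophages of post-sepsis mice carried more replication transcripts than those of naive mice. In the limma fit on the 16 marrow arrays, 27 of the 34 genes rose (Benjamini-Hochberg adjusted p under 0.05 over all genes tested) and 0 fell, against 5.98% of all 29641 genes that rose and 5.93% that fell. The median difference of the 34 genes was 1.58 on the log2 scale, against 0.05 for all genes. All 8 genes of the helicase and its GINS partners rose, and so did all 4 polymerase and primase genes. The rise also took in 2 of 3 licensing genes, 3 of 5 clamp, clamp loader and single-strand binding genes, 1 of 2 flap and ligation genes, 4 of 5 nucleotide genes, 3 of 4 chromatin and histone genes and 2 of 3 genes of G1 to S control. In 27 genes every post-sepsis array lay above every naive array, which held for 6.32% of all genes.

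Among the licensing genes, Mcm10, which helps to switch the loaded helicase on, had levels of 2.30, 3.09, 2.65 and 2.71 on the 4 M0 post-sepsis arrays. On the M0 naive arrays Mcm10 had 1.16, 0.83, 0.22 and 0.64. The groups did not overlap, and the difference was 1.97 ± 0.24 (standard error of the limma fit, adjusted p = 5e-05). Cdc6, which brings the helicase to the origin, read -0.11, 0.50, -0.22 and 0.11 in M0 post-sepsis and -1.68, -1.63, -2.34 and -1.72 in M0 naive. These groups were also apart, by 1.91 ± 0.29 (limma adjusted p = 0.000321). Cdt1, the partner of Cdc6 in loading, overlapped between the groups, with 4.50, 5.0, 4.29 and 4.92 against 4.54, 4.28, 3.92 and 4.27. Its difference of 0.43 ± 0.19 was not called (limma adjusted p = 0.208).

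Mcm5, a subunit of the helicase ring whose E2F-type motifs are printed above, had the largest difference of the 34 genes. Its levels were 4.17, 4.68, 3.88 and 4.13 in M0 post-sepsis and 2.48, 2.16, 1.46 and 2.05 in M0 naive, so the lowest post-sepsis array stood above the highest naive one. The difference was 2.18 ± 0.23, or 4.53-fold (limma adjusted p = 1.5e-05). The other ring subunits also rose, Mcm2 by 1.84, Mcm3 by 1.61, Mcm4 by 1.33, Mcm6 by 1.20 and Mcm7 by 1.79, as did the GINS subunit Gins1, by 1.45. Gins2, a GINS subunit that joins the helicase to the polymerase, had the smallest difference of this role. Its 4 post-sepsis levels of 0.47, 1.38, 0.54 and 1.99 all lay above the naive levels of 0.07, -0.26, -0.21 and 0.12, by 1.16 ± 0.27 (limma adjusted p = 0.00979). The Gins2 difference was 0.55 within slide 2 and 1.61 within slide 3.

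Pola1 read 2.05, 2.55, 1.65 and 1.83 in M0 post-sepsis and 0.79, 0.42, -0.51 and 0.08 in M0 naive. All 4 post-sepsis arrays were higher, by 1.82 ± 0.32 (limma adjusted p = 0.00108). Pold1, the catalytic subunit of the lagging strand polymerase, had the smallest difference of the polymerases, 1.35 ± 0.23 (limma adjusted p = 0.000724). Its post-sepsis levels were 3.28, 3.74, 3.02 and 3.25 and its naive levels 2.38, 2.03, 1.52 and 1.96, without overlap. Prim1, which makes the primers, rose by 1.57 and Pole, of the leading strand polymerase, by 1.61.

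Pcna, the sliding clamp, read 6.72, 7.27, 6.56 and 7.20 in M0 post-sepsis and 6.81, 6.69, 6.44 and 6.77 in M0 naive. The groups overlapped, and the difference of 0.26 ± 0.19 was not called (limma adjusted p = 0.541). Of the clamp loader, Rfc5 rose by 1.47 ± 0.17 (limma adjusted p = 3.26e-05), from naive levels of 2.25, 1.89, 1.65 and 2.06 to post-sepsis levels of 3.20, 3.70, 3.32 and 3.53, with no overlap. Rfc4 rose by 1.36 and Rpa2, which coats single-stranded DNA, by 1.34, while Rfc3, whose difference was 0.05 within slide 2 and 1.23 within slide 3, was not called (0.63 ± 0.25, limma adjusted p = 0.128).

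Fen1, which trims the flaps of the lagging strand, read 5.05, 5.46, 4.94 and 5.44 in M0 post-sepsis and 4.19, 4.09, 3.71 and 4.11 in M0 naive. All post-sepsis arrays were higher, by 1.20 ± 0.19 (limma adjusted p = 0.000414). Lig1, the ligase that seals the joined fragments, was the single gene of the 34 with a lower mean after sepsis. Its levels of 4.43, 4.83, 4.44 and 4.65 overlapped with the naive levels of 4.83, 4.90, 4.34 and 4.94, and the difference of -0.17 ± 0.24 was not called.

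Ribonucleotide reductase makes deoxynucleotides, and Rrm2 encodes its cell-cycle-regulated subunit. Rrm2 read 4.91, 5.21, 4.77 and 4.78 in M0 post-sepsis and 3.25, 2.96, 2.62 and 2.77 in M0 naive. No array of either group entered the other's range, and the difference was 2.02 ± 0.28 (limma adjusted p = 0.000153). Tk1, the thymidine kinase of S phase, read 4.53, 4.99, 4.54 and 4.61 against 3.28, 2.88, 2.23 and 2.81. It rose by 1.87 ± 0.21 (limma adjusted p = 2.5e-05), again without overlap. Rrm1, the large reductase subunit, rose by 1.84, and Dut, described with the M2 cultures, by 1.69. Tyms, which makes thymidylate, read -0.42, -0.82, 2.37 and -0.94 against -0.42, -0.96, -0.84 and -1.12. Its post-sepsis replicate 3 stood apart at 2.37 and the other arrays of both groups overlapped. The difference of 0.88 ± 0.57 was not called (limma adjusted p = 0.467).

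Chaf1a, the large subunit of chromatin assembly factor 1, read 1.38, 2.45, 1.45 and 2.22 in M0 post-sepsis and 0.36, -0.21, -0.68 and -0.12 in M0 naive. The groups were apart by 2.04 ± 0.26 (limma adjusted p = 6.67e-05). Uhrf1, which reads hemimethylated DNA behind the fork, rose by 1.94 ± 0.33 (limma adjusted p = 0.000815), from 1.91, 1.60, 1.66 and 1.61 to 3.17, 3.94, 3.44 and 4.00. Chaf1b, the partner of Chaf1a, rose by 1.59. Slbp, which binds the stem-loop of histone messages, overlapped between the groups, with -1.37, -0.35, -0.86 and 0.45 in M0 post-sepsis and -1.38, -1.18, -0.72 and -0.80 in M0 naive. On the Slbp probe that was brighter on the marrow arrays, the difference was 0.32 ± 0.44 (limma adjusted p = 0.825), -0.81 within slide 2 and 1.44 within slide 3, and on the probe whose levels are given it was 0.49. No direction is drawn for this gene.

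E2f1, an activator of S phase genes, read 3.01, 3.49, 3.12 and 2.94 in M0 post-sepsis and 2.62, 2.16, 1.60 and 1.98 in M0 naive. It rose by 1.05 ± 0.21 (limma adjusted p = 0.00278), the smallest difference among the 27 called genes. Ccne1, cyclin E1, read 3.47, 3.82, 3.44 and 3.18 against 2.28, 1.78, 1.23 and 1.57, a rise of 1.76 ± 0.22 (limma adjusted p = 6.83e-05). Both genes had no overlap between the groups on the probes whose levels are given. On a second, dimmer Ccne1 probe, above background on all 23 arrays, the difference was 0.52, so the size of the Ccne1 rise is uncertain. Ccne2, cyclin E2, was near the limit of detection, above background on 2 of the 4 naive arrays. Its levels were -2.31, -1.73, -3.03 and -2.01 against -4.88, -3.99, -4.76 and -2.91, and the difference of 1.87 ± 0.78 was not called (limma adjusted p = 0.162).

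The M0 post-sepsis arrays lay on slides 2 and 3 of the 3 slides, with 2 arrays on each, and the mean level of the 34 genes was 2.78 and 2.79 on slide 2 and 3.34 and 3.16 on slide 3. Within slide 2 the 27 called genes were higher after sepsis by 0.55 to 2.27, and within slide 3 by 0.60 to 2.06. With the median of each array in place of its 75th percentile, 19 of the 27 remained called and 8 did not (E2f1, Fen1, Gins1, Gins2, Mcm4, Mcm6, Pold1 and Rfc4). Other cell type markers moved in the same comparison. Of 11 macrophage markers, 7 fell and 1 rose, with a mean level of 4.80 to 5.65 on the post-sepsis arrays and 6.13 to 6.30 on the naive ones. Of 8 marrow progenitor and promyelocyte markers, 4 rose and 0 fell, with a mean level of -0.65 to -0.18 against -1.78 to -1.44, and 6 of 7 neutrophil markers fell. Of 5 dendritic cell markers tested, 2 rose and 0 fell, while 1 of 7 B cell and 1 of 5 pigment cell markers fell. The mean level of 6 dendritic cell markers was -2.02 to -1.22 on the post-sepsis arrays and -3.02 to -2.26 on the naive ones. The part of these cell types in the rise of the replication genes was not tested. Of the 7 genes with an E2F-type motif before the start, 6 were called, with differences of the 7 from 0.63 (Rfc3) to 2.18 (Mcm5). Of the 22 with a window but no motif before the start, 17 were called, with differences from -0.17 to 2.04.

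**Figure D2:**
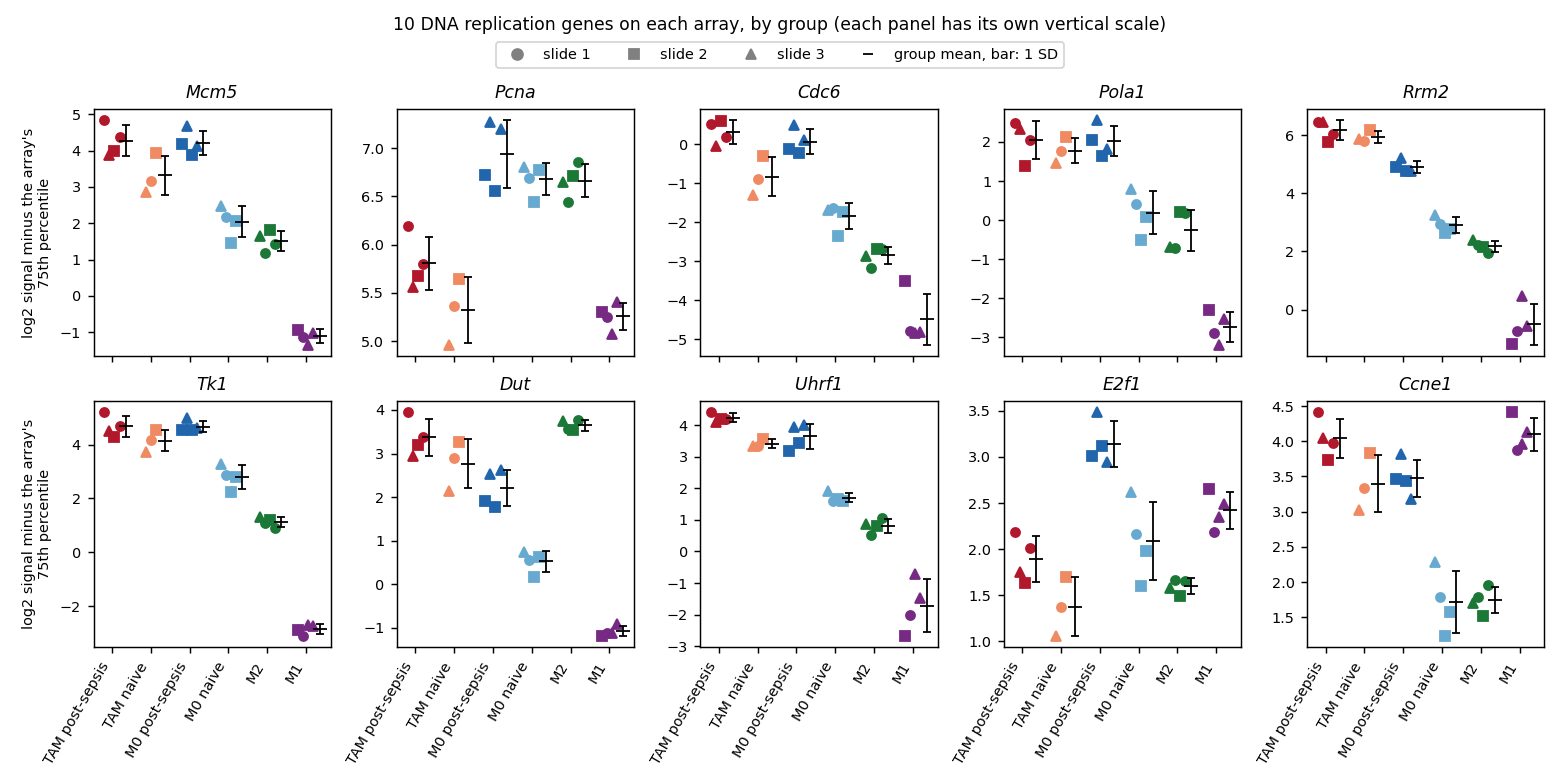
Level of 10 of the genes on each array, as log2 signal minus the array's 75th percentile; marker shape gives the slide, and the bar gives the group mean with 1 SD. M1 arrays are lowest for Mcm5, Cdc6, Pola1, Rrm2, Tk1, Dut and Uhrf1, Pcna differs little among M0 and M2 cultures, Dut has its highest mean in M2, and Ccne1 in M1 overlaps with TAM post-sepsis.

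Cultures given interferon-gamma and lipopolysaccharide carried less of most replication transcripts. Of 33 genes tested in M1 against M0 naive, 23 fell, 1 rose and 9 were not called, against 14.6% of all 29505 genes that fell and 13.1% that rose. The median difference was -1.57, against -0.12 for all genes. The genes that fell were 2 of 3 in licensing, 7 of 8 of the helicase and GINS, 4 of 4 polymerases and primase, 2 of 5 of the clamp group, 2 of 2 in flap removal and ligation, 4 of 5 in nucleotide supply, 2 of 4 in chromatin supply and 0 of 2 in G1 to S control. Mcm3, Mcm6, Mcm7, Gins1, Prim1 and Rfc4 were among them, with differences from -2.63 (Gins1) to -0.90 (Rfc4). In 25 genes every M1 array lay below every M0 naive array, which held for 18.6% of all genes. The comparisons of M0 post-sepsis, M1, M2 and TAM naive with M0 naive share the M0 naive arrays, so their differences are not independent.

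Tk1 fell most. Its M1 levels were -2.87, -3.11, -2.68 and -2.72, all far below the naive levels given above. The difference was -5.64 ± 0.21 (limma adjusted p = 3.44e-11) on this probe, and -2.78 and -1.11 on a pair of dimmer Tk1 probes that are named for other transcripts. Pole, the catalytic subunit of the leading strand polymerase, differed by -4.69 ± 0.26 (limma adjusted p = 2.02e-09) and was above background on 3 of the 4 M1 arrays, at -3.81, -4.23, -4.48 and -3.69. On its other probe above background on most arrays the difference was -3.00.

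Within the licensing genes Mcm10 fell to -2.20, -2.76, -3.13 and -2.51, a difference of -3.36 ± 0.24 (limma adjusted p = 3.64e-08). Cdc6 fell to -3.50, -4.78, -4.83 and -4.82, a difference of -2.64 ± 0.29 (limma adjusted p = 3.27e-06), and was above background on only 1 of the 4 M1 arrays, so the size is uncertain. Cdt1, at 4.05, 3.71, 3.75 and 3.94, was not called (-0.39 ± 0.19, limma adjusted p = 0.17). The helicase subunit Mcm5 fell to -0.93, -1.12, -1.35 and -1.02, a difference of -3.14 ± 0.23 or 8.82-fold (limma adjusted p = 5.35e-08), and the other ring subunits differed by -2.38 (Mcm2) to -1.31 (Mcm4). Gins2 was also below every naive array, with M1 levels of -0.71, -0.55, -0.42 and -0.50 and a difference of -0.47 ± 0.27 that was not called (limma adjusted p = 0.265).

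Pola1 fell to -2.31, -2.89, -3.19 and -2.53, a difference of -2.93 ± 0.32 (limma adjusted p = 3.12e-06), and Pold1 to 0.77, 0.47, 0.11 and 0.26, a difference of -1.57 ± 0.23 (limma adjusted p = 5.15e-05). The M1 arrays of both genes lay below all naive arrays. Pcna, which was not called after sepsis, fell in M1 to 5.30, 5.25, 5.07 and 5.40, a difference of -1.42 ± 0.19 (limma adjusted p = 1.93e-05). Rfc5, at 1.71, 1.51, 1.64 and 1.78, was not called (-0.30 ± 0.17, limma adjusted p = 0.249), nor were Rfc3 and Rpa2. Fen1 fell to 2.72, 2.39, 2.43 and 2.67, a difference of -1.47 ± 0.19 (limma adjusted p = 1.49e-05). Lig1 fell to 3.57, 3.17, 2.52 and 2.57, a difference of -1.80 ± 0.24 (limma adjusted p = 2.22e-05), although its mean hardly differed between the M0 groups.

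Rrm2 fell to -1.20, -0.73, 0.46 and -0.58, a difference of -3.41 ± 0.28 (limma adjusted p = 1.62e-07), and its catalytic partner Rrm1 differed by -1.99 ± 0.22 (limma adjusted p = 3.13e-06). Tyms, at 0.14, 0.47, -0.76 and -0.68, overlapped with the naive arrays and was not called (0.63 ± 0.57, limma adjusted p = 0.538). Uhrf1 fell to -2.68, -2.02, -0.70 and -1.48, a difference of -3.42 ± 0.33 (limma adjusted p = 8.29e-07), with a wider spread than in any other group. Chaf1a fell to -1.27, -1.66, -1.33 and -1.44, a difference of -1.26 ± 0.26 (limma adjusted p = 0.00125), whereas its partner Chaf1b was not called (0.14 ± 0.21, limma adjusted p = 0.711). Slbp, at -1.05, -0.78, -0.79 and -0.49, overlapped with the naive arrays, with a difference of 0.24 on this probe. The brighter Slbp probe, which was tested, was not called (0.26 ± 0.44, limma adjusted p = 0.749).

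Cyclin E1 went the other way. Ccne1 levels in M1 were 4.42, 3.88, 3.96 and 4.13, all above the 4 naive levels, and the difference was 2.38 ± 0.22, or 5.21-fold higher (limma adjusted p = 6.13e-07). The difference was 2.10, 3.02 and 1.77 within slides 1, 2 and 3, and 2.15 on the second Ccne1 probe. E2f1 levels in M1 were 2.65, 2.19, 2.35 and 2.49, which overlapped with the naive ones, and the difference of 0.33 ± 0.21 was not called (limma adjusted p = 0.316). Ccne2, at -3.17, -7.22, -6.24 and -6.61, was not tested because too few arrays of either group were above background. Cell type markers moved in M1 too. Of 11 macrophage markers, 6 fell and 1 rose, with a mean level of 4.88 to 4.98 in M1. Of 8 marrow progenitor and promyelocyte markers, 4 fell and 0 rose, with a mean level of -2.71 to -2.48. Of 7 neutrophil markers, 6 fell and 1 rose, with a mean level of -1.44 to -1.06 in M1 against 1.31 to 1.56 in M0 naive. Their part in the M1 differences was not tested.

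In M2 cultures most of the 34 genes were not called. Of 33 tested, 6 fell (Cdc6, Mcm10, Mcm6, Prim1, Pole and Tk1) and 2 rose (Dut and Rfc5), against 7.04% of all 29689 genes that fell and 4.89% that rose. The median difference was -0.46, against -0.07 for all genes. In 9 genes every M2 array lay below every naive array, which held for 13.6% of all genes. The count of calls moved with the scaling. It was 14 lower and 2 higher after quantile normalization, and 1 lower and 1 higher with the median of each array, where 52.0% of all called genes were higher against 41.0% in the main setting. Without M0 naive replicate 3 it was 11 lower and 2 higher, and without any 1 of the other 7 arrays of these groups it was 4 lower and 2 higher, with the calls of Cdc6 and Prim1 lost each time.

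Dut, the dUTPase that keeps uracil out of DNA, had the largest difference. Its levels were 3.75, 3.56, 3.53 and 3.77 in M2, 0.73, 0.56, 0.17 and 0.63 in M0 naive and -1.18, -1.11, -1.11 and -0.92 in M1. All 4 M2 arrays lay above every other marrow array, including the M0 post-sepsis arrays at 1.92, 2.52, 1.78 and 2.62. The difference from M0 naive was 3.13 ± 0.20, or 8.76-fold (limma adjusted p = 5.16e-08), with 3.11, 3.13 and 3.01 within slides 1, 2 and 3. A second Dut probe, named for a different transcript, differed by 1.33 in M2, 0.21 in M0 post-sepsis, 0.21 in M1 and -0.83 between the TAM groups, against 3.13, 1.69, -1.60 and 0.60 on the probe used. Both probes were higher in M2, but they had opposite signs in M1 and between the TAM groups, and the calls of Dut in M0 post-sepsis and M1 were lost over the mean of the probes. Rfc5, at 2.89, 2.50, 2.74 and 2.70 in M2, rose by 0.75 ± 0.17 (limma adjusted p = 0.00916).

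On the probes used, Tk1 had the largest fall in M2. Its levels of 1.32, 1.08, 1.20 and 0.90 were all below the naive ones, a difference of -1.67 ± 0.21 (limma adjusted p = 6.02e-05). A dimmer Tk1 probe, above background on all 23 arrays, differed by -0.91, and another, above background on 10 arrays, by -0.06. The size and rank of the Tk1 fall are therefore uncertain. Mcm10 fell to -0.26, -0.49, -0.31 and -0.13, a difference of -1.01 ± 0.24 (limma adjusted p = 0.0114). Cdc6 fell to -2.87, -3.16, -2.67 and -2.69, a difference of -1.0 ± 0.29 (limma adjusted p = 0.0344), a call that was lost with slide as a block (-0.97 ± 0.32, limma adjusted p = 0.0626). Mcm6 differed by -1.04, Pole by -1.19 and Prim1 by -0.73. The genes that were not called include Mcm5, at 1.64, 1.18, 1.80 and 1.43, with a difference of -0.52 ± 0.23 (limma adjusted p = 0.185). Cdt1, at 3.64, 3.69, 3.48 and 3.79, differed by -0.60 ± 0.19 (limma adjusted p = 0.055), was not called, and was called lower with slide as a block (-0.64 ± 0.18, limma adjusted p = 0.0288).

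The remaining genes with values on every array were not called in M2. Pola1 read -0.70, -0.72, 0.20 and 0.17, a difference of -0.46 ± 0.32 from M0 naive. Pold1 read 1.61, 1.16, 1.54 and 1.11, a difference of -0.62 ± 0.23. Both overlapped with the naive arrays. Rrm2 read 2.39, 2.22, 2.16 and 1.94, a difference of -0.72 ± 0.28 (limma adjusted p = 0.121). Uhrf1 read 0.86, 0.53, 0.80 and 1.05, a difference of -0.89 ± 0.33 (limma adjusted p = 0.103). All M2 arrays of these last genes lay below all naive ones although neither passed the test.

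Pcna, at 6.65, 6.44, 6.71 and 6.86, had the smallest difference of the 33 genes in M2, -0.02 ± 0.19. Fen1 read 4.10, 4.15, 4.06 and 4.59, a difference of 0.20 ± 0.19. Lig1 read 4.31, 4.81, 4.74 and 4.69, a difference of -0.12 ± 0.24. The clamp, the flap nuclease and the ligase thus overlapped with the naive arrays. Gins2 read 0.02, 0.22, 0.18 and 0.36 in M2, Chaf1a read 0.02, -0.19, -0.09 and 0.03, and both overlapped with the naive arrays. Slbp read -0.26, -0.96, -0.35 and -0.46, also with overlap. Tyms read -1.32, -0.74, -0.54 and -0.27, within reach of the naive arrays. E2f1 read 1.58, 1.67, 1.49 and 1.66, a difference of -0.49 ± 0.21 that was not called (limma adjusted p = 0.163). Ccne1 read 1.70, 1.79, 1.52 and 1.96, inside the naive range and below all M1 arrays. Ccne2, at -6.76, -5.71, -4.44 and -4.19, was close to background and not tested. Of the 11 macrophage markers, 4 fell and 1 rose in M2, with a mean level of 5.35 to 5.58, and of the 8 marrow progenitor and promyelocyte markers 1 fell and 0 rose. Of the 7 neutrophil markers, 5 fell and 0 rose, with a mean level of -0.11 to 0.27 in M2. Their part in the M2 differences was not tested.

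**Figure D3:**
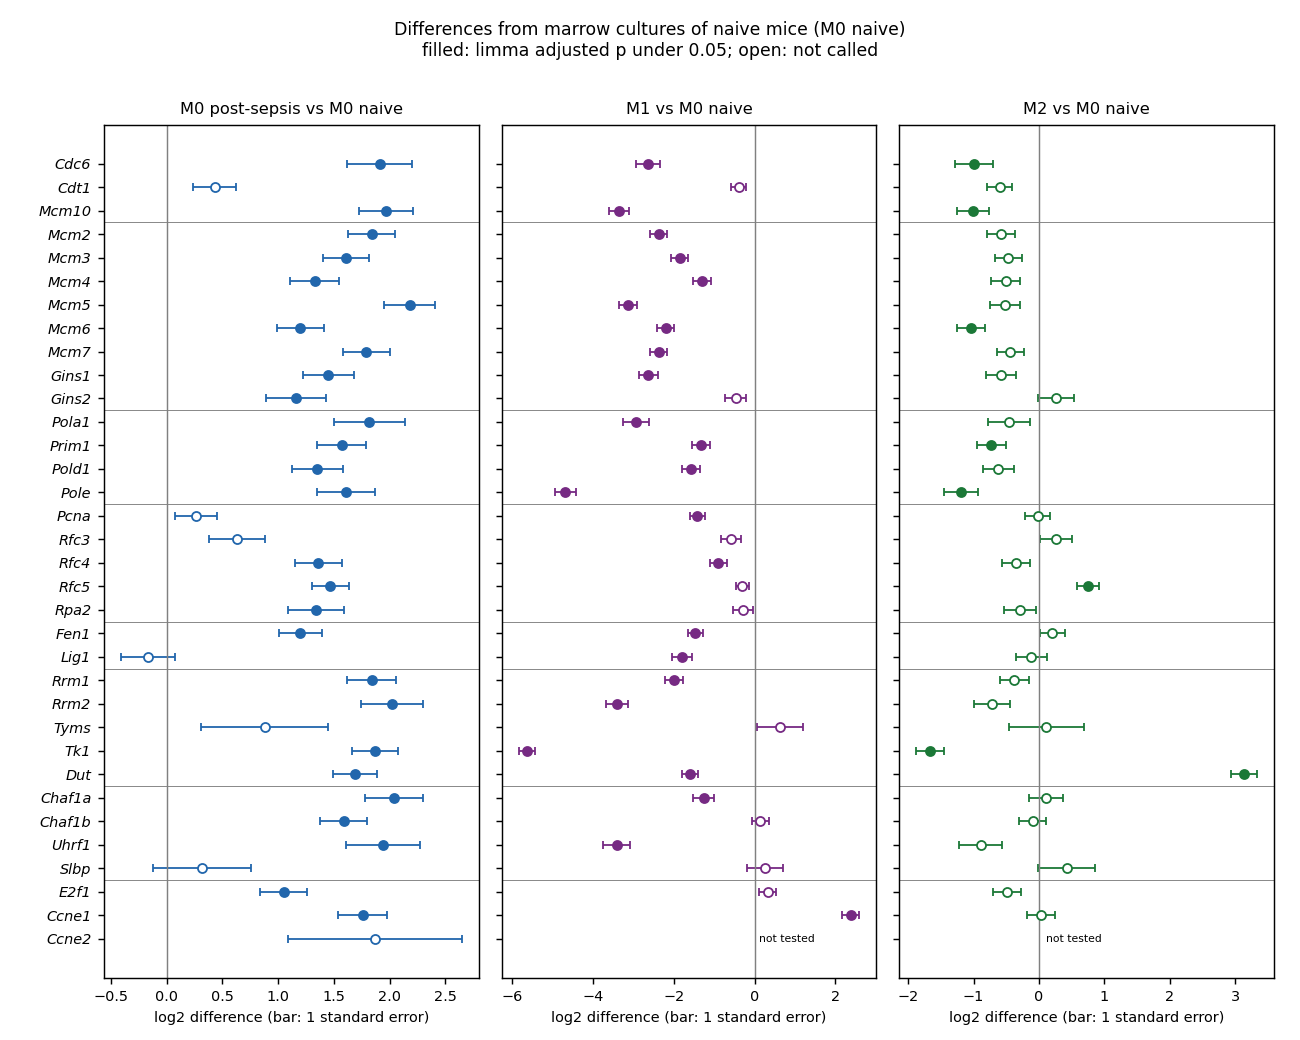
Log2 difference of each gene from M0 naive in M0 post-sepsis, M1 and M2, with 1 standard error of the limma fit; filled points passed an adjusted p of 0.05 and open points did not, and each panel has its own horizontal scale. The 27 filled points of M0 post-sepsis are all above 0, the 24 of M1 are below 0 except Ccne1, and the 8 of M2 include Dut and Rfc5 above 0.

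The treated cultures were also compared with each other and with the post-sepsis ones. In M1 against M2, 23 of 33 genes were lower, against 15.4% of all 28688 genes, and 2 were higher, against 15.6% of all genes. These 2 were Ccne1 (2.36 ± 0.22, limma adjusted p = 6.52e-07) and E2f1 (0.82 ± 0.21, limma adjusted p = 0.00613). With median scaling 20 genes were lower and 1 higher, and the call of E2f1 was lost. M0 post-sepsis and M2 differ both in sepsis and in IL-10, which cannot be told apart in their comparison. In M0 post-sepsis against M2, 28 of 34 genes were higher, against 11.3% of all 29686 genes, and 1 was lower, against 7.69% of all genes. The lower one was Dut (-1.44 ± 0.20, limma adjusted p = 0.000104). With median scaling 47.3% of all called genes of this comparison were higher, against 59.6% in the main setting, and the replication genes were called higher in 24 and lower in 1. Cdt1 and Ccne2, which were not called in M0 post-sepsis against M0 naive, were higher here by 1.03 ± 0.19 and 3.01 ± 0.78 (limma adjusted p = 0.00127 and 0.0131). The call of Cdt1 was lost with median scaling. Ccne2 was above background on 2 of the 4 M2 arrays and entered the test only through the M0 post-sepsis arrays, where it was higher. Its call therefore depends on the filter, and its size is uncertain.

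In the tumour isolates no replication gene passed the test between post-sepsis and naive mice. In the limma fit on the 7 TAM arrays, 0 of 34 genes were called, as were 0 of all 28945 genes (0%), while 18 of the 34 and 10935 of all genes had an unadjusted p under 0.05. Without TAM post-sepsis replicate 2 the same fit called 10 of the 34 higher and 0 lower, and 2148 of all genes higher and 7638 lower. The difference was above 0 for 32 of the 34 genes, with a median of 0.60 against -0.04 for all genes. In 12 of the 34 every post-sepsis array lay above every naive array, which held for 10.2% of all genes. With slide as a block, 9 genes were called higher (Cdc6, Cdt1, Mcm4, Mcm7, Gins2, Rfc3, Chaf1a, Uhrf1 and Slbp) and 0 lower, against 7.99% of all genes higher and 26.6% lower. That count was 0 without TAM naive replicate 3 (6 with an unadjusted limma p under 0.05), 3 without TAM post-sepsis replicate 1 or 4, 5 without TAM post-sepsis replicate 2 or TAM naive replicate 1, 16 without TAM naive replicate 4 and 18 without TAM post-sepsis replicate 3. With the median of each array as the scale, the median of the 34 genes was 1.16 and that of all genes 0.51.

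Cdc6 read 0.52, -0.04, 0.60 and 0.19 in TAM post-sepsis and -1.30, -0.88 and -0.30 in TAM naive. The groups did not overlap, and the difference was 1.15 ± 0.30 (limma adjusted p = 0.114), or 1.15 ± 0.20 with slide as a block (adjusted p = 0.011). Chaf1a read 2.33, 1.58, 2.02 and 2.23 against 0.51, 0.18 and 1.29, with no overlap and a difference of 1.38 ± 0.32 (limma adjusted p = 0.114). Uhrf1, at 4.42, 4.08, 4.19 and 4.20 against 3.34, 3.33 and 3.57, did not overlap either, and differed by 0.81 ± 0.19 (limma adjusted p = 0.114). Gins2 had the largest difference, 1.57 ± 0.57, but post-sepsis replicate 2 lay within the naive range, with 0.37, -1.17, 0.55 and 0.38 against -2.08, -2.09 and -0.43. Cdt1 read 5.52, 4.98, 4.98 and 5.24 against 3.82, 4.41 and 4.74. Mcm10 read 3.18, 2.98, 2.78 and 2.99 against 2.14, 2.35 and 2.63. Neither of these licensing genes overlapped between the groups.

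Mcm5 read 4.83, 3.89, 4.00 and 4.38 in TAM post-sepsis and 2.87, 3.17 and 3.92 in TAM naive, where 1 naive array entered the post-sepsis range. Pola1 read 2.48, 2.33, 1.38 and 2.05 against 1.46, 1.76 and 2.12, with the naive arrays inside the post-sepsis range. Pold1 read 3.78, 3.44, 2.96 and 3.31 against 2.66, 3.01 and 3.17. These polymerases overlapped between the TAM groups. Pcna read 6.19, 5.56, 5.67 and 5.80 against 4.96, 5.36 and 5.64. Rfc5 read 3.78, 3.32, 3.07 and 3.50 against 2.66, 2.92 and 3.36. None of Mcm5, Pola1, Pold1, Pcna and Rfc5 passed the test, and within slide 2 their differences were between -0.73 and 0.08. Fen1 read 4.89, 4.20, 4.51 and 4.62 against 3.76, 4.00 and 4.10. Lig1 read 4.14, 3.95, 4.05 and 4.20 against 3.29, 3.40 and 3.78. For Fen1 and Lig1 all post-sepsis arrays were the higher ones.

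Rrm2 read 6.44, 6.45, 5.77 and 6.03 in TAM post-sepsis and 5.86, 5.80 and 6.18 in TAM naive, its highest levels among the 6 groups, with a difference of 0.23 ± 0.25 (limma adjusted p = 0.497). Tk1 read 5.22, 4.52, 4.30 and 4.69 against 3.74, 4.17 and 4.53. Tyms read -0.55, -1.15, -0.93 and -0.33 against -0.76, -0.59 and -0.77. The ranges of Rrm2, Tk1 and Tyms overlapped between the TAM groups. Slbp read -0.24, -0.94, 0.25 and -0.11 against -1.35, -1.42 and -0.58. E2f1 read 2.19, 1.75, 1.63 and 2.01 against 1.06, 1.37 and 1.70. Ccne1 read 4.41, 4.04, 3.74 and 3.97 against 3.02, 3.34 and 3.83. Slbp, E2f1 and Ccne1 each had at least 1 naive array within the post-sepsis range. Ccne2, at -2.82, -6.11, -3.57 and -3.31 against -5.58, -3.73 and -4.39, was close to background.

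**Figure D4:**
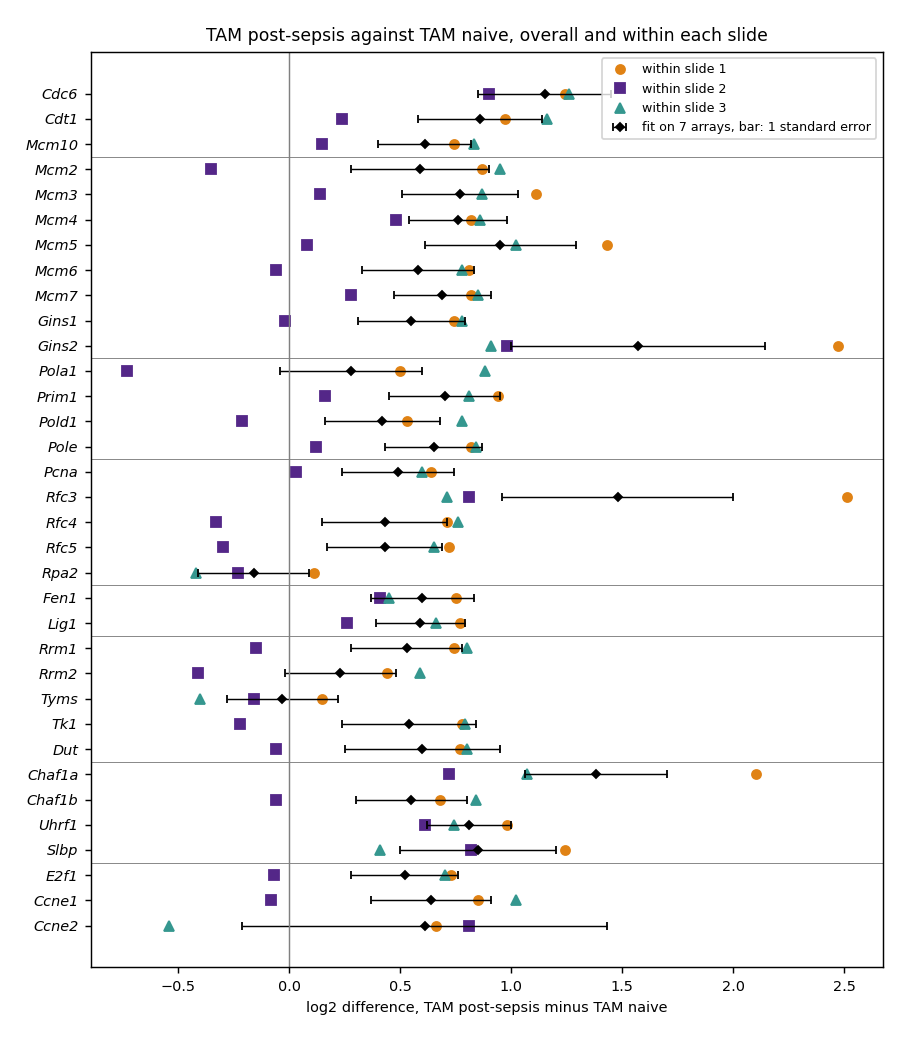
Log2 difference of each gene between TAM post-sepsis and TAM naive, from the fit on 7 arrays (diamonds with 1 standard error) and within each of the 3 slides (coloured points; each slide holds 1 naive array and 1 or 2 post-sepsis arrays). Within slide 2 the points of 16 genes lie below 0, while Cdc6, Chaf1a and Uhrf1 lie above 0 within every slide.

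The slides differed in this comparison. The median of the 34 differences was 0.06 within slide 2, with 18 genes above 0 and 16 below, and each slide held 1 naive array and 1 or 2 post-sepsis arrays. Markers of other cell types were present in the TAM isolates. All 7 pigment cell markers were above background on every TAM array, with a mean level of 6.44 to 7.15, while Tyrp1 and Dct were above background on no marrow array. All 7 fibroblast markers were also above background on every TAM array. The 11 macrophage markers had a mean level of 0.26 to 1.64 on TAM arrays, against 4.80 to 6.30 on M0 arrays. The B cell markers had a mean level of -2.59 to -0.41 in TAM post-sepsis and 0.42 to 2.36 in TAM naive, and the T and NK cell markers -2.99 to -1.30 and -0.94 to -0.03. The part of these cells in the replication gene levels of the TAM arrays was not tested.

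Against M0 naive, the naive tumour isolates carried more of most replication transcripts. In TAM naive against M0 naive 23 of 33 genes were higher, against 15.1% of all 30582 genes, and 4 were lower, against 20.5% of all genes. Rrm2 (3.05 ± 0.29, limma adjusted p = 2.89e-08) and Mcm2 (2.94 ± 0.26, limma adjusted p = 9.47e-09) had the largest differences. The 4 lower genes were Gins2 (-1.46), Pcna (-1.36), Lig1 (-1.26) and E2f1 (-0.71). The call of Gins2 was lost without replicate 1 or 3 of TAM naive. That of E2f1 was lost on the compared groups alone and without replicate 1 of TAM naive or of M0 naive. Of the higher genes, Cdc6, Chaf1a, Gins1, Mcm4 and Mcm6 each lost their call without some single array. With median scaling 13 genes were higher and 4 lower, and the share of all called genes that were higher was 29.5% against 42.5% in the main setting. With TAM naive replicate 2 included, 5 were higher and 4 lower.

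In TAM post-sepsis against M0 post-sepsis, 4 of 34 genes were higher, against 16.5% of all 29871 genes, and 5 were lower, against 27.7%. The higher ones were Mcm2 (1.69 ± 0.24, limma adjusted p = 7.67e-06), Rrm2 (1.26), Dut (1.16) and Prim1 (0.60). The call of Dut was lost over the mean of its probes. That of Prim1 was lost with median scaling, without a filter on dim probes and on the compared groups alone. It was also lost without replicate 1 or 4 of TAM post-sepsis, or replicate 1 or 3 of M0 post-sepsis. The lower ones were E2f1 (-1.25 ± 0.21, limma adjusted p = 6.37e-05), Pcna (-1.13), Gins2 (-1.06), Rpa2 (-1.01) and Fen1 (-0.66). With median scaling the calls of Pcna, Gins2, Rpa2 and Fen1 were lost, and on the compared groups alone those of Gins2 and Fen1. The call of Gins2 was also lost with quantile normalization and with slide as a block. Leaving out replicate 2 or 4 of M0 post-sepsis, or replicate 2 of TAM post-sepsis, ended it too. The median of all genes was -0.36 here and that of the 34 genes 0.14. With median scaling these were -0.06 and 0.44, 50.4% of all called genes were higher against 37.3%, and 4 replication genes were higher and 1 lower.

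Whether sepsis moved the replication genes differently in the 2 cell sources was tested with an interaction term on 23 arrays. For 8 of the 34 genes the sepsis difference was smaller in TAM than in M0, against 2.34% of all 31735 genes, and for 0 it was larger, against 3.60%. They were Rrm2 (-1.79 ± 0.39, limma adjusted p = 0.0102), Rpa2 (-1.50 ± 0.36, 0.0184), Mcm10 (-1.37 ± 0.33, 0.0188), Tk1 (-1.33), Rrm1 (-1.31), Mcm2 (-1.25), Mcm7 (-1.10) and Rfc5 (-1.04). For Rrm2 the difference was 2.02 in M0 and 0.23 in TAM, and for Rpa2 1.34 in M0 and -0.16 in TAM. The call of Tk1 was lost over the mean of its probes. On a second Tk1 probe, above background on all 23 arrays, the sepsis difference was 1.99 in M0 and 1.48 in TAM. The count depended on the scaling. The median of all genes was -0.32 in this contrast and that of the 34 genes -0.93. With median scaling they were 0.34 and -0.28, 0 of the 34 were called (2 had an unadjusted limma p under 0.05), and 86.3% of all called genes were larger in TAM against 60.6% in the main setting. Quantile normalization called 23 of the 34 lower, with 72.3% of all called genes larger in TAM.

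Further genes of replication, not among the 34, were counted in the same fits, and the shares of all genes given above for each comparison hold beside these and the next lists. Of 53 such genes, 26 rose and 1 fell in M0 post-sepsis against M0 naive, with a median of 0.73. Whether they differed from the 34 genes was not tested. Recql4, a helicase needed to start replication, rose by 2.04 ± 0.22 (limma adjusted p = 1.76e-05) and Orc1, a subunit of the origin recognition complex, by 2.00 ± 0.34 (limma adjusted p = 0.000788). Orc1 was above background on too few M0 naive arrays to be tested in M1 or M2 against M0 naive. It entered the present test only through the M0 post-sepsis arrays, so its call depends on the filter and its size is uncertain. The kinase Cdc7, with 1.89 ± 0.71, was not called (limma adjusted p = 0.113). Samhd1, which breaks deoxynucleotides down, was the gene of these 53 that fell, with a difference of -1.23 ± 0.20 (limma adjusted p = 0.000482). Rrm2b, the reductase subunit of resting cells, with -0.99 ± 0.45, and Orc5, with -0.54 ± 0.37, were not called (limma adjusted p = 0.211 and 0.5). In M1 against M0 naive 7 of 52 rose, among them Samhd1 (0.69 ± 0.20, limma adjusted p = 0.0138), and 19 fell, among them Recql4 (-0.77 ± 0.22, limma adjusted p = 0.015). In M2 against M0 naive 0 of 52 rose and 7 fell, and 16 had an unadjusted p under 0.05. In TAM naive against M0 naive 17 of 53 were higher and 9 lower, and in the interaction 2 were larger and 3 smaller in TAM. The counts were 8 higher and 16 lower in M1 against M2, 31 higher and 1 lower in M0 post-sepsis against M2, and 13 higher and 10 lower in TAM post-sepsis against M0 post-sepsis, and 0 of 53 were called between the TAM groups (27 had an unadjusted limma p under 0.05).

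Of 30 regulators of the passage from G1 to S, 14 rose and 0 fell in M0 post-sepsis against M0 naive, with a median of 0.69. The largest differences were those of the cyclins Ccna2 (2.20 ± 0.32, limma adjusted p = 0.00022) and Ccnd2 (2.08 ± 0.28, limma adjusted p = 0.00011) and of the kinase partner Cks1b (2.10 ± 0.22, limma adjusted p = 1.22e-05). At the other end stood E2f5 (-1.07 ± 0.46), the retinoblastoma relative Rbl2 (-0.65 ± 0.31) and Rb1 (-0.43 ± 0.22), none of which was called. In M1 against M0 naive 10 of 30 fell and 3 rose. Ccna2 had a difference of -5.87 ± 0.32 (limma adjusted p = 1.73e-09), while Ccnd2 rose by 1.38 ± 0.28 (limma adjusted p = 0.0012). In M2 against M0 naive 5 fell and 2 rose, in TAM naive against M0 naive 11 were higher and 7 lower, and in the interaction 6 were smaller and 0 larger in TAM. The counts were 4 higher and 9 lower in M1 against M2, 14 higher and 1 lower in M0 post-sepsis against M2, 7 higher and 10 lower in TAM post-sepsis against M0 post-sepsis, and 0 of 29 between the TAM groups (10 had an unadjusted limma p under 0.05).

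Genes of mitosis, the step after S phase, were set beside the replication genes. In M0 post-sepsis against M0 naive 21 of 23 tested rose and 0 fell, with a median of 1.90. The kinases Aurka (2.33 ± 0.21, limma adjusted p = 2.64e-06) and Plk1 (2.25 ± 0.22, limma adjusted p = 6.43e-06) and Cdc20, the activator of the anaphase-promoting complex (2.24 ± 0.24, limma adjusted p = 1.68e-05), had the largest differences. Kif2c (1.44 ± 0.38), Cenpa (1.04 ± 0.24) and Ndc80 (0.81 ± 0.28, not called) had the smallest. In M1 against M0 naive 21 of 22 fell with a median of -3.06, and in M2 against M0 naive 10 of 22 fell with a median of -0.73. The counts were 21 of 22 lower in M1 against M2, 23 of 23 higher in M0 post-sepsis against M2, 15 of 22 higher in TAM naive against M0 naive, 0 of 24 in TAM post-sepsis against M0 post-sepsis and 0 of 24 between the TAM groups (2 and 6 had an unadjusted limma p under 0.05), and 11 of 24 smaller in TAM in the interaction. Whether the mitosis genes differed from the replication genes was not tested.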

How the data were processed

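RNA of each sample was hybridised to 1 Agilent 1-colour array, scanned with Agilent Feature Extraction (version 10.7.3.1 per the file headers, 12.5 per the submitters' processing notes). The processed intensity the authors deposited is already background-subtracted. The log2 of it minus the array's 75th percentile was computed here for 55681 probes. Probes were named through RefSeq accessions (GRCm38.p6) where these matched (27656) and otherwise through symbols. Probes entered a test if 3 or more arrays of a compared group were flagged well above background, and the brightest kept probe stood for a gene. Groups were compared with limma 3.58.1 in R 4.3.3, with Benjamini-Hochberg adjustment over all genes tested and a threshold of 0.05. Tumour groups were fitted alone, marrow groups together, and the rest over 23 arrays. Alternatives tried were normexp correction, quantile and median scaling, other probe filters, the mean of probes, a trend in eBayes, slide or replicate as a block, only the compared groups, TAM naive replicate 2 included, and leaving out each array.

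The 34 genes, the other gene lists and the markers were chosen with earlier results of these data known. Levels on every array are given for 10 preset genes and for the members of each role with the largest and smallest difference in M0 post-sepsis, and of the other lists the 3 genes at each end of that comparison are named. The levels of Dut on the marrow arrays and of Pole on the M1 arrays are given outside this rule, beside their large differences in M2 and M1. Same-numbered arrays of M1 and M0 naive had positively correlated deviations (0.618, 0.107, 0.694 and 0.103 over genes), so their numbers may pair them, which the labels do not state. Correlations between differently numbered arrays were not computed, so a pairing is not shown. Replicate 4 of M0 post-sepsis and M0 naive reached 0.601, with negative values for the other numbers. The number of arrays limits the precision.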

Additional observations from a re-analysis of the deposited data

Results flagged for a closer look

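In groups of 4 arrays, 8 of 170 tests of a member's level found an array whose gap to its nearest neighbour exceeded Dixon's critical ratio, and chance alone flags about 1 group in 20. Tyms in M0 post-sepsis replicate 3 read 2.37, against -0.94 to -0.42 on the other 3 arrays. TAM post-sepsis replicate 2 was low for Gins2, at -1.17 against 0.37 to 0.55, and for Rfc3, at -1.19 against 0.21 to 0.47. Cdc6 read -2.34 in M0 naive replicate 3, against -1.72 to -1.63, and -3.50 in M1 replicate 1, against -4.83 to -4.78 on arrays where it was not above background. Rfc3 read -0.93 in M0 naive replicate 4, against -1.20 to -1.17. In M2, Prim1 read 0.25 in replicate 2, against 0.54 to 0.57, and Fen1 read 4.59 in replicate 4, against 4.06 to 4.15.

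The sepsis difference itself differed between TAM and M0 for 8 genes, by an interaction term in limma over 23 arrays. The interaction was -1.79 for Rrm2 (limma adjusted p = 0.0102), -1.50 for Rpa2 (limma adjusted p = 0.0184), -1.37 for Mcm10 (limma adjusted p = 0.0188), -1.31 for Rrm1 (limma adjusted p = 0.0203) and -1.33 for Tk1 (limma adjusted p = 0.0266). It was -1.04 for Rfc5 (limma adjusted p = 0.0348), -1.10 for Mcm7 (limma adjusted p = 0.0357) and -1.25 for Mcm2 (limma adjusted p = 0.0403). Scaling each array by its median left 0 of them called, and the call of Tk1 was also lost over the mean of its probes.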

How the results depend on the processing

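The call of M0 post-sepsis against M0 naive and of M1 against M0 naive kept its count within 1.5 times under every alternative tried, as did M1 against M2 and M0 post-sepsis against M2. Leaving out single arrays gave 27 to 28, 24, 25 and 28 to 29 called genes in these comparisons, with medians of 1.44 to 1.70, -1.72 to -1.44, -1.43 to -1.34 and 1.79 to 2.07. For M2 against M0 naive it gave 6 to 13 genes (13 without M0 naive replicate 3) and medians of -0.62 to -0.33. For TAM naive against M0 naive it gave 22 to 26 genes and 0.86 to 1.18, for TAM post-sepsis against M0 post-sepsis 8 to 11 genes and 0.01 to 0.31, and for the interaction 4 to 12 genes and -1.06 to -0.81. For the TAM groups it gave 0 to 10 genes (10 without TAM post-sepsis replicate 2) and 0.44 to 0.74, and leaving out arrays with slide as a block, a combination added after seeing the data, gave 0 to 18 genes and 0.41 to 0.78.

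Quantile normalization called 16 genes in M2 against M0 naive, 16 in TAM post-sepsis against M0 post-sepsis and 23 in the interaction. Median scaling called 2, 5 and 0 there and 17 in TAM naive against M0 naive, with medians of 0.44 in TAM post-sepsis against M0 post-sepsis, 0.67 in TAM naive against M0 naive, 1.16 between the TAM groups and -0.28 in the interaction. The interaction called 3 genes after normexp correction, 5 without a filter, and 1 on the compared groups alone, but 11 with a trend in eBayes and 12 on probes above background on all arrays. These last settings called 11 and 10 genes in TAM post-sepsis against M0 post-sepsis. With TAM naive replicate 2 included, the interaction called 1 gene (median -0.18) and TAM naive against M0 naive 9 (median 0.42), and the TAM median was 1.29. The slide block called 9 genes between the TAM groups, and the M1 against M2 median was -1.13 after normexp. Within slide 2 the medians were 1.68 (M0 post-sepsis against M2), -1.19 (M1 against M0 naive), -1.17 (M1 against M2), -0.20 (M2), 1.69 (TAM naive against M0 naive), 0.06 (TAM groups) and -1.36 (interaction). Within slide 3 they were -0.77 (M2), 0.39 (TAM naive against M0 naive) and -0.28 (TAM post-sepsis against M0 post-sepsis, reversed). The cause of these shifts was not tested.

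Genes called in a comparison, or called under the alternative, that changed sign were Gins1 in TAM naive against M0 naive (-0.29 with replicate 2 included, -0.16 within slide 3), Mcm4 (-0.59) and Mcm5 (-0.42) there with replicate 2 included, Mcm6 there within slide 3 (-0.05), Gins2 in TAM post-sepsis against M0 post-sepsis within slide 2 (0.05), Tk1 there over the mean of its probes (-0.64) and Mcm2 in the interaction with replicate 2 included (0.18). The replicate number as a block called 7 genes between the TAM groups, 27 in M0 post-sepsis and 9 in M2 against M0 naive, 26 in M1 against M2, 29 in M0 post-sepsis against M2, 26 in TAM naive and 9 in TAM post-sepsis against M0, and 7 in the interaction, where the numbers were not found to pair the samples. In M1 against M0 naive, where they may pair them, the block called 24 genes and changed no call. Signal over background limits Cdc6 and Pole in M1 and Ccne2 in most groups.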

Other observations

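Some regulators of the entry into S phase, picked after their values were seen, were called in the marrow cultures. Myc, a driver of growth, differed from M0 naive by 1.79 in M0 post-sepsis, 1.30 in M2 and -3.79 in M1. Ccnd1, cyclin D1, differed by 1.81 in M0 post-sepsis, -1.24 in M2 and -3.80 in M1. Cyclin kinase inhibitors went both ways in M1, with differences of 2.07 for Cdkn1a and 1.43 for Cdkn2b, and of -3.31 for Cdkn2c and -1.08 for Cdkn1c. The rise of Cdkn2b was not particular to M1. In M2 Cdkn2b differed by 1.48, Cdkn1b by -0.82 and Cdkn2c by -0.68. In M0 post-sepsis Cdkn2b differed by 1.14, Cdkn2c by 1.51 and Cdkn2d by 1.19. All the values given here passed an adjusted p of 0.05 in limma.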
